A study of Mus musculus with 80 samples.

Results

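The receptors described here are 39 receptors for neuropeptides and peptide hormones, measured by RNA-seq in 5 brain regions of virgin and primiparous mice. They were chosen by name from the 27179 genes of the count table. All 39 have a row in the table, and 36 of them passed the filter for testing, which kept 13016 genes with a minimum of 5 CPM (counts per 1000000 counted reads) in 8 or more libraries. The bombesin-like peptide receptors Nmbr and Grpr and the glucagon-like peptide 1 receptor Glp1r did not pass.

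The study asked which expression differences last in the brain after a first pregnancy and the rearing of pups. C57BL/6 females (C57BL/6J in the methods) with no transgene or deletion were used, 8 virgin and 8 primiparous, all age-matched. Primiparous females had been paired with a male for 2 weeks from an age of 8 weeks, had given birth and had weaned their pups 3 weeks before harvest per the sample labels, where the study's methods give a longer interval. Only this group had met males, so mating, pregnancy, nursing and male contact cannot be told apart. The hypothalamus was taken whole, and the hippocampus, neocortex, cerebellum and amygdala from the left side. Each animal gave a library to each region, and 77 of the 80 libraries are analysed here: 8 virgin and 8 primiparous for hypothalamus and neocortex, and 7 virgin and 8 primiparous for hippocampus, cerebellum and amygdala, where the authors had removed 1 virgin library each as an outlier.

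Neuropeptides are released by neurons and reach receptors on nearby or distant cells. The receptors here act through G proteins, except the leptin receptor Lepr, a cytokine receptor that acts through Janus kinases. The hypothalamus holds the neurons that control feeding, stress, thirst, temperature and reproduction, and many of these neurons both release and sense peptides. Because each library comes from a whole tissue piece, fewer cells with a receptor and less receptor RNA per cell cannot be told apart.

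Between 7959192 and 37871854 reads were counted per library. A list of marker genes for each dissected region had its highest median sum in that region, although single libraries of the neocortex and the amygdala overlapped with other regions on their lists. The 6 hypothalamic markers summed to 856 to 1518 CPM in hypothalamus libraries and to at most 77.2 CPM in the others. A few libraries stood apart and bear on single receptors. In the hippocampus, virgin 4487 and primiparous 425 held over 1000 CPM of Ttr, a choroid plexus marker, as did primiparous 421 and virgin 4491 in the cerebellum. Hippocampus primiparous 413 held 54.3 CPM of the cerebellar marker Gabra6. Neocortex libraries primiparous 413, primiparous 425 and virgin 405 had 1.22 to 12 CPM of Cdhr1, a gene of the olfactory bulb, against 46.0 to 138 CPM in the other 13. Hypothalamus libraries primiparous 414, primiparous 427 and virgin 4490 had 59.6 to 120 CPM of Prl, a pituitary hormone, against at most 15 CPM in the rest.

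A receptor was taken as too low to measure in a region when its median count there was under 10 reads. By this rule all 39 receptors were measurable in the hypothalamus and 20 in all 5 regions, and none was too low throughout. The amygdala had 3 receptors too low to measure (Grpr, Glp1r and the ghrelin receptor Ghsr), and the hippocampus had 3 (the melanocortin receptor Mc3r, the galanin receptor Galr1 and the calcitonin receptor Calcr). In the neocortex 7 were too low: Mc3r, Galr1, Calcr, Ghsr, Grpr, Glp1r and the mu opioid receptor Oprm1. The cerebellum had 18, namely Npy2r, Npy5r, Mc3r, Mc4r, Hcrtr1, Mchr1, Oprm1, Sstr2, Tacr1, Tacr3, Crhr2, Ntsr1, Npbwr1, Grpr, Trhr, Glp1r, Ghsr and Calcr. The smallest hypothalamus library could miss a receptor below 0.377 CPM, the level that 3 reads would give there, and this limit covers counting error only.

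**Figure D1:**
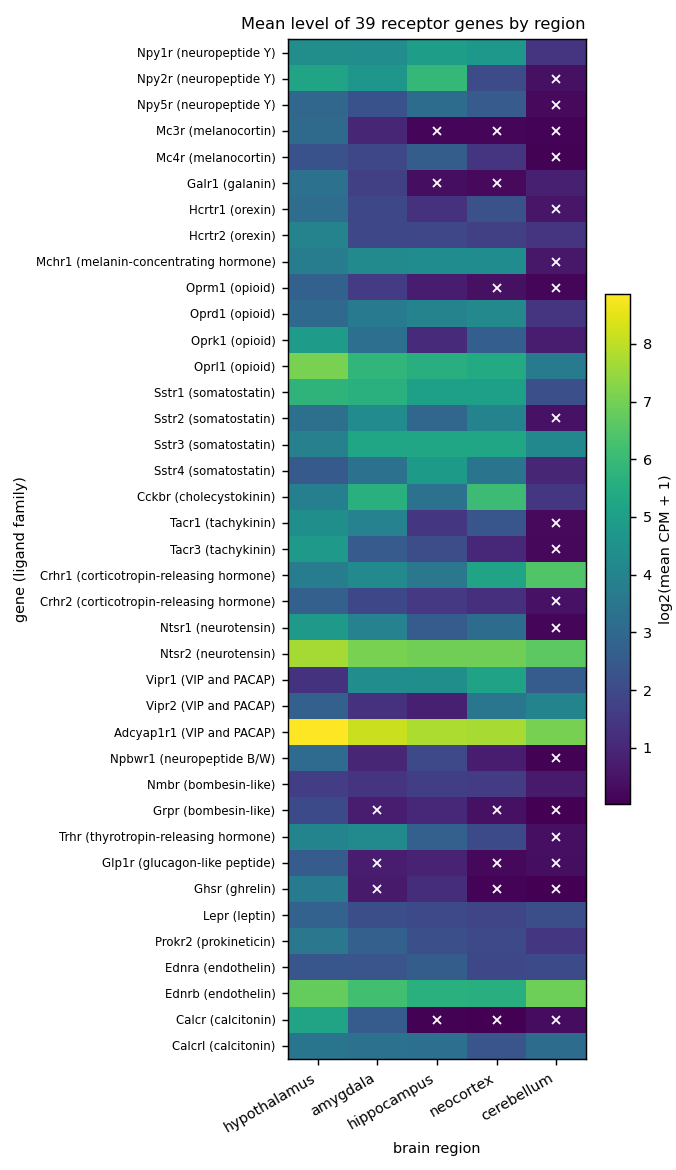
Mean level of each of the 39 receptors (rows, by receptor family) in each brain region (columns), coloured by log2(mean CPM + 1), with a white cross where the median count was under 10. The hypothalamus column has no cross and the cerebellum column has 18, and Adcyap1r1, Ntsr2, Oprl1 and Ednrb are among the rows with high values in the hypothalamus.

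The hypothalamus was the region of highest mean level for 22 of the 39 receptors, the hippocampus for 8, and the amygdala, neocortex and cerebellum for 3 each. At the other end, 28 had their lowest mean in the cerebellum and 7 in the neocortex. These counts of means describe the receptors only, since they have no share over all genes beside them. Differences between regions were tested with edgeR on all 77 libraries. In the study's methods each region's libraries were pooled for sequencing, so region and sequencing pool may not be separable. A receptor that passed the filter only through the region where it is high had to differ between regions, so differences were counted for the 23 receptors that reached 5 CPM in 8 libraries of at least 2 regions, beside the 12107 genes that did the same. The hypothalamus differed from the amygdala in 20 of the 23, where 71.4% of those genes differed, from the hippocampus in 20 (73.3% of genes), from the neocortex in 22 (78.1%) and from the cerebellum in 22 (80.9%). Amygdala and hippocampus differed in 18 receptors (59.3%), amygdala and neocortex in 20 (63.0%), amygdala and cerebellum in 23 (80.4%), hippocampus and neocortex in 16 (68.2%), hippocampus and cerebellum in 23 (78.9%), and neocortex and cerebellum in 22 (80.1%). Most genes differ between brain regions, and these counts are to be read against that.

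Of the 23, 7 were higher in the hypothalamus than in each other region, against 15.6% of genes, and 2 were lower there than in each other region, against 14.1%. In the hippocampus 4 were higher than in each other region (8.06% of genes), in the amygdala 2 (4.88%), in the neocortex 2 (8.67%) and in the cerebellum 1 (21.5%). The cerebellum was lower than each other region for 17 of the 23, or 73.9%, where 22.6% of genes were. Among the 13 tested receptors that reached that level in 1 region only, 11 were highest in the hypothalamus and 2 in the hippocampus, which the filter itself favours.

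Per kilobase of exon, the scale on which genes can be compared, the same pair of receptors led in most regions. Adcyap1r1, the receptor for the peptide PACAP, had 70.2 CPM per kb in the hypothalamus and 43.3 in the amygdala, and was first in both. Ntsr2, a neurotensin receptor that is abundant in astrocytes, had 64.7 CPM per kb in the hypothalamus and was first in the hippocampus (38.7) and the neocortex (39.6). The third place differed by region. It went to the nociceptin receptor Oprl1 in the hypothalamus (36.2 CPM per kb), to the somatostatin receptors Sstr1 in the amygdala (23.5) and Sstr4 in the hippocampus (19.6), and to the cholecystokinin receptor Cckbr in the neocortex (23.5). The cerebellum had a different order, with the corticotropin-releasing hormone receptor Crhr1 first (35.8), Ntsr2 next (31.9) and the endothelin receptor Ednrb after them (28.0).

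Levels from here on are CPM, given as mean ± SD over the 16 hypothalamus, 15 amygdala, 15 hippocampus, 16 neocortex and 15 cerebellum libraries of both states. Calcr and Ghsr had the largest ratios of highest to lowest regional mean among the 39 receptors. Their lowest means, in neocortex and cerebellum, were too low to measure, so these ratios and their rank are not exact and served only to choose the 2 genes. Calcr, the calcitonin receptor, which amylin and calcitonin act on, lies at chr6:3685680-3764714 on the minus strand (GRCm38). Its level was 24.2, 35.7 and 44.6 CPM in the lowest, median and highest hypothalamus library. In the amygdala the same values were 1.87, 4.24 and 10.5 CPM. In the cerebellum it reached at most 0.714 CPM, and it was at 0 in 9 of 15 hippocampus libraries and in 13 of 16 neocortex libraries. No library of another region came near the lowest hypothalamus library, and the fitted level was 6.37-fold higher in the hypothalamus than in the amygdala, the next region. Calcr, Ghsr, Mc3r, Hcrtr2 and Tacr3 passed the filter through the hypothalamus alone and so had to be higher there, and their folds are given as descriptions without a p.

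Ghsr, through which ghrelin acts on feeding and growth hormone release, lies at chr3:27371351-27378010 on the plus strand. It was at 8.13, 11.5 and 15.1 CPM (lowest, median and highest) in the hypothalamus, and at 0.365, 1.03 and 2.11 CPM in the hippocampus. The amygdala had 0.581 ± 0.55 CPM and the neocortex 0.0905 ± 0.0856 CPM, and 9 of 15 cerebellum libraries held no read. The hypothalamus was 8.14-fold above the hippocampus, the largest such step among the 39 receptors.

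The windows around the annotated start sites of these receptors are printed because Calcr and Ghsr had those ratios with the hypothalamus highest, and Crhr1 was the receptor higher in the cerebellum than in each other region. They run from 250 bases before to 50 bases after a RefSeq start site (GRCm38.p6), 5′ to 3′ on the gene's strand, and capitals mark the dinucleotide CG, which reads CG on both strands. Calcr has a start site 1 base from the 5′ end of the gene, in chr6:3764664-3764963 (minus strand) with 4 CG, and another 1091 bases into the gene, in chr6:3763574-3763873 (minus strand) with 29 CG. The Ghsr window, chr3:27371101-27371400 (plus strand), holds 16 CG and the Crhr1 window, chr11:104132531-104132830 (plus strand), holds 31. Over all 32851 windows of the table the median was 7 CG, 12.9% held 29 or more and 38.0% held 4 or fewer. These counts describe the sequence only.
Calcr, outer start: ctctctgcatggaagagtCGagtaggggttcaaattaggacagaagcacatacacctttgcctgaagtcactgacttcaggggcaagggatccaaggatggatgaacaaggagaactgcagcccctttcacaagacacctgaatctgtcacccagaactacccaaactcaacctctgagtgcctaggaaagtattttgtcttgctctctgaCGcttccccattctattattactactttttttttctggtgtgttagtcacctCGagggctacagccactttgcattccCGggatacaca
Calcr, inner start: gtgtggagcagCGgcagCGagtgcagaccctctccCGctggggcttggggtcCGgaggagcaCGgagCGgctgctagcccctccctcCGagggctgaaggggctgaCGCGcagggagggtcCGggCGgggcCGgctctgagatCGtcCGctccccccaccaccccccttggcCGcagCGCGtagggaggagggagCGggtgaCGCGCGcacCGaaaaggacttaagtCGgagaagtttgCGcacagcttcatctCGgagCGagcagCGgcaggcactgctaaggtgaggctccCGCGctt
Ghsr: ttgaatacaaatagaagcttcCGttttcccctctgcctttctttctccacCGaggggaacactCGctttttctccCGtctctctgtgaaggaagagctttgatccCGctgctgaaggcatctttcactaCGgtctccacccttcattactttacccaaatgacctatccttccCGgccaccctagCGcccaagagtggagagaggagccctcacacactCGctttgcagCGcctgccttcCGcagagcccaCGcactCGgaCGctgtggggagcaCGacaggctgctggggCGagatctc
Crhr1: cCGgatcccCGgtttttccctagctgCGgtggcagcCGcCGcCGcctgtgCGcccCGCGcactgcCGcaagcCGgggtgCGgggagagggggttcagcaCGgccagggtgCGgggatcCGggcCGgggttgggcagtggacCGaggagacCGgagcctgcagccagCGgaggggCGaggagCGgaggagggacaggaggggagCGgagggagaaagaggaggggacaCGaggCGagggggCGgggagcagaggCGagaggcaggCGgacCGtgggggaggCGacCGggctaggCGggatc
For 33 of the 39 receptors 42 windows were found, with a median of 11 CG and a range of 1 to 43.

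The remaining receptors with a fitted level at least 4-fold higher in the hypothalamus than in every other region were Mc3r, Hcrtr2, Tacr3 and Glp1r. Mc3r, which with Mc4r senses melanocortins and their antagonist Agrp, was at 5.78, 7.32 and 9.96 CPM in the lowest, median and highest hypothalamus library and at 0.981 ± 0.449 CPM in the amygdala, a 7.02-fold step. Hcrtr2, an orexin receptor that promotes wakefulness, had 14.8 ± 3.21 CPM in the hypothalamus and 1.56 to 2.84 CPM on average elsewhere, a 4.70-fold step. Tacr3, the receptor for neurokinin B, was 4.87-fold higher in the hypothalamus (26.2 ± 5.05 CPM) than in the amygdala (4.87 ± 1.84 CPM). Glp1r, not in the filtered table, had 5.08 ± 1.59 CPM in the hypothalamus and 0.848 ± 0.427 CPM in the hippocampus, 5.17-fold apart in a fit without the filter. In all of these the lowest hypothalamus library was above every library of the other regions. They were chosen for the size of that step, which favours such a separation. It has no share of all genes beside it and is a description only.

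**Figure D2:**
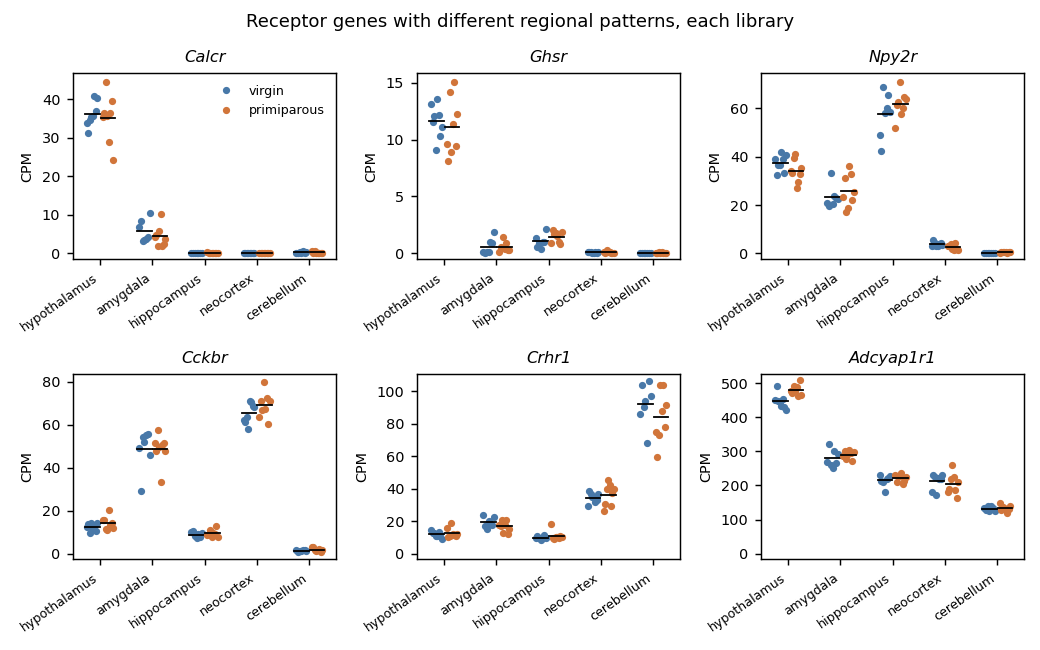
CPM of Calcr, Ghsr, Npy2r, Cckbr, Crhr1 and Adcyap1r1 in each library (points), by brain region, with virgin and primiparous libraries in separate colours and lines at the group means. Calcr and Ghsr are high in the hypothalamus only, Npy2r is highest in the hippocampus, Cckbr in the neocortex and Crhr1 in the cerebellum, where its libraries lie between 59.5 and 106 CPM.

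Other receptors with melanocortin, orexin or related roles had no step of 4-fold between the hypothalamus and every other region. Mc4r was highest in the hippocampus (5.23 ± 1.14 CPM) and lower in the hypothalamus (3.80 ± 1.01 CPM) and the amygdala (2.86 ± 0.921 CPM), and these last did not differ from each other (adjusted p = 0.138). Hcrtr1 had 8.03 ± 1.58 CPM in the hypothalamus against 3.62 ± 0.838 CPM in the neocortex, the next region. Mchr1, the receptor for melanin-concentrating hormone, had nearly the same level in hippocampus (19.2 ± 2.19 CPM), neocortex (19.0 ± 1.91 CPM) and amygdala (18.2 ± 2.97 CPM), and neighbours in that order did not differ (adjusted p of 0.644 and 0.76); the hypothalamus was lower at 12.3 ± 1.76 CPM. Galr1 was at 9.24 ± 1.99 CPM in the hypothalamus and 2.27 ± 1.11 CPM in the amygdala. Npbwr1, for neuropeptides B and W, was at 7.68 ± 0.943 CPM in the hypothalamus and 2.94 ± 0.868 CPM in the hippocampus. Prokr2, for prokineticins, fell from 10.6 ± 2.23 CPM in the hypothalamus to 1.68 ± 0.751 CPM in the cerebellum. Nmbr was near 2 CPM in 4 regions (1.64 to 2.20 CPM on average) and at 0.577 ± 0.25 CPM in the cerebellum, whereas Grpr had 2.99 ± 1.08 CPM in the hypothalamus and at most 1.04 CPM on average in the others.

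The 3 neuropeptide Y receptors were each highest in the hippocampus. Npy1r, a postsynaptic receptor, was at 30.3 ± 3.97 CPM in the hippocampus, 25.9 ± 4.53 in the neocortex, 19.8 ± 2.98 in the hypothalamus and 19.3 ± 3.37 in the amygdala, where only the last neighbours did not differ (adjusted p = 0.219). Npy2r, a presynaptic autoreceptor on many neuropeptide Y neurons, was at 42.4, 60.1 and 71.0 CPM in the lowest, median and highest hippocampus library, above the highest hypothalamus library at 41.9 CPM. Its neocortex level was 3.15 ± 1.13 CPM. Npy5r had 7.81 ± 1.03 CPM in the hippocampus and 6.62 ± 1.87 CPM in the hypothalamus (adjusted p = 0.0143). In the cerebellum all of them were low, with 1.65 ± 0.44, 0.356 ± 0.155 and 0.183 ± 0.181 CPM in the same order. Npy1r and Npy5r lie beside each other on chromosome 8, and the counting's strand setting is not given in the sources used here.

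Opioid receptors differed from one another in where they were high. Oprk1, the dynorphin receptor, had 28.3 ± 4.32 CPM in the hypothalamus, 8.45 ± 2.12 in the amygdala, 5.4 ± 1.39 in the neocortex and 1.18 ± 0.368 in the hippocampus. Oprl1 was at 115, 137 and 155 CPM in the lowest, median and highest hypothalamus library, and no library elsewhere exceeded 69.7 CPM. Oprm1 was lower, from 5.80 ± 0.944 CPM in the hypothalamus and 1.99 ± 0.625 CPM in the amygdala down to 0.116 ± 0.116 CPM in the cerebellum. Oprd1, which enkephalins act on, had its highest mean in the neocortex (17.1 ± 6.6 CPM) and its hypothalamus mean was 7.21 ± 1.89 CPM. The wide SD in the neocortex came with 3.08 CPM in its lowest library, and neocortex and hippocampus (14.7 ± 2.01 CPM) did not differ (adjusted p = 0.309).

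Among the somatostatin receptors, Sstr4 was a hippocampal receptor in these data: its lowest, median and highest hippocampus libraries had 21.6, 27.7 and 33.0 CPM, and no other library exceeded 16.1 CPM. Sstr2 was highest in the amygdala (18.6 ± 3.8 CPM) with the neocortex next (14.7 ± 3.08 CPM; adjusted p = 0.00973). Sstr1 reached 53.1 ± 6.19 CPM in the hypothalamus and 48.1 ± 8.06 CPM in the amygdala, which did not differ after normalization (adjusted p = 0.989). Sstr3, which sits on neuronal cilia, had similar means before normalization in amygdala (37.0 ± 5.57 CPM), neocortex (36.1 ± 3.68) and hippocampus (36.1 ± 3.55) and was lowest in the hypothalamus at 13.6 ± 2.26 CPM. Sstr3 thus ran against the set, and the cerebellum (16.9 ± 2.39 CPM) exceeded the hypothalamus (adjusted p = 4.44e-05).

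Cckbr was a forebrain receptor, at 58.1, 67.8 and 79.95 CPM in the lowest, median and highest neocortex library. The amygdala followed with 48.8 ± 7.87 CPM (adjusted p = 1.18e-05), then the hypothalamus with 13.3 ± 2.59, the hippocampus with 9.24 ± 1.53 and the cerebellum with 1.68 ± 0.745 CPM. Tacr1, the substance P receptor, was at 20.7 ± 1.58 CPM in the hypothalamus and 14.3 ± 3.66 CPM in the amygdala (adjusted p = 0.0243), and fell to 4.29 ± 1.73 CPM in the neocortex. Ntsr1, the high-affinity neurotensin receptor, was at 26.9 ± 2.98 CPM in the hypothalamus, 14.3 ± 2.33 in the amygdala and 0.136 ± 0.237 in the cerebellum. Ntsr2 changed much less between regions, from 202 ± 23.5 CPM in the hypothalamus to 99.4 ± 7.28 CPM in the cerebellum. Trhr, the receptor for thyrotropin-releasing hormone, had its highest mean over both states in the amygdala (17.7 ± 5.34 CPM). The hypothalamus was at 15 ± 3.08 CPM (edgeR, adjusted p = 0.0188) and the neocortex at 3.03 ± 1.15 CPM. Virgin libraries ranged from 7.56 to 22.6 CPM in the amygdala and from 14.9 to 19.7 CPM in the hypothalamus. Primiparous libraries ranged from 12.4 to 30.3 and from 9.27 to 15.9 CPM. The order of these regions was not tested within a state.

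The receptors for corticotropin-releasing hormone, VIP and PACAP differed from one another in the region of their highest mean. Crhr1, the main stress hormone receptor (chr11:104132855-104175523, plus strand), was at 59.5, 90.6 and 106 CPM in the lowest, median and highest cerebellum library. Its neocortex values were 26.1, 35.8 and 45.6 CPM, so the ranges did not overlap, and the fitted step was 2.30-fold (adjusted p = 1.65e-23). In the hippocampus its mean was 10.5 ± 2.26 CPM, with 18 CPM in primiparous 413, the library with cerebellar Gabra6, and at most 10.8 CPM in the other primiparous libraries. Crhr2 was highest in the hypothalamus and lowest in the cerebellum, with 5.70 ± 1.06 CPM in the hypothalamus and 0.359 ± 0.85 CPM in the cerebellum. Vipr1 was lowest in the hypothalamus (1.52 ± 0.858 CPM) and highest in the neocortex (34.0 ± 5.58 CPM). Vipr2, which binds VIP and PACAP as Vipr1 does, had 15.1 ± 3.58 CPM in the cerebellum, 10.4 ± 6.21 in the neocortex and 5.74 ± 1.5 in the hypothalamus. Adcyap1r1 was at 423, 463 and 509 CPM in the lowest, median and highest hypothalamus library, and the highest library of any other region, in the amygdala, had 320 CPM.

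Lepr, Crhr2 and Vipr2 moved with the libraries that stood apart. In the hippocampus, Lepr was at 5.96 and 11.1 CPM in the libraries with over 1000 CPM of Ttr and at 1.04 to 3.52 CPM in the other 13, and Crhr2 was at 4.27 and 5.59 CPM against 0.766 to 2.67 CPM. In the cerebellum, Crhr2 was at 0.512 and 3.37 CPM in the Ttr-rich libraries and at most 0.481 CPM in the others, while Lepr was at 3.68 and 6.74 CPM against 1.92 to 4.29 CPM, so that 1 of the Ttr-rich libraries lay within the range of the rest. Without the Ttr-rich libraries and hippocampus primiparous 413, Lepr became lower in the hippocampus than in the amygdala (log2 difference of amygdala over hippocampus 0.72, adjusted p = 0.000725, from 0.23 with all libraries, adjusted p = 0.398) and than in the cerebellum (−0.46 for hippocampus over cerebellum, adjusted p = 0.0261, from −0.07, adjusted p = 0.79). Crhr2 likewise became lower in the hippocampus than in the amygdala (0.99, adjusted p = 4.44e-06, from 0.61, adjusted p = 0.0548). The Ttr-rich hippocampus libraries held its highest Lepr and Crhr2, so leaving them out had to lower the hippocampus values. No conclusion is drawn from these changes. Lepr and Crhr2 remained highest in the hypothalamus, at 5.95 ± 1.17 and 5.70 ± 1.06 CPM. Vipr2 was at 0.438 to 1.38 CPM in the 3 neocortex libraries low in Cdhr1 and at 6.01 to 22.1 CPM in the other 13. All 3 lay below the lowest cerebellum library at 8.15 CPM. Over all libraries the log2 difference of neocortex over cerebellum was −0.43 (adjusted p = 0.128), and −0.15 (adjusted p = 0.488) with those 3 left out, which removes only low neocortex values; the part of bulb tissue in neocortex Vipr2 was not tested.

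**Figure D3:**
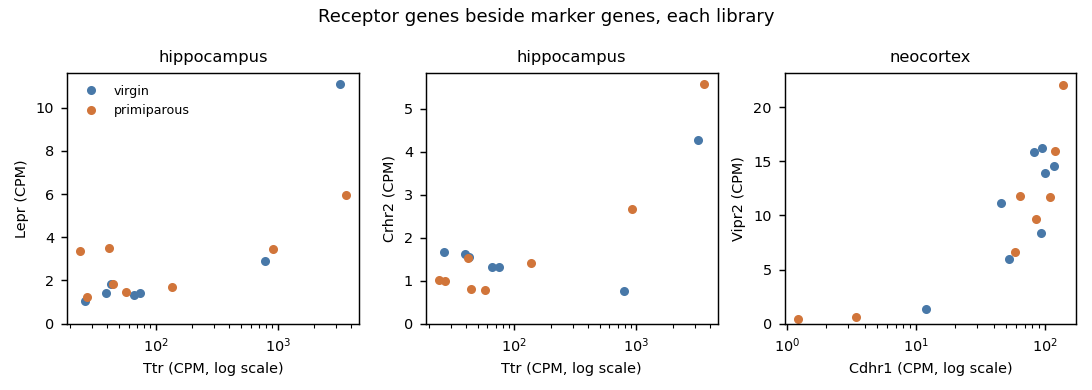
Hippocampus Lepr and Crhr2 against the choroid plexus marker Ttr, and neocortex Vipr2 against the olfactory bulb gene Cdhr1, in CPM with 1 point per library and log scales as labelled. The 2 hippocampus libraries with over 1000 CPM of Ttr have the highest Lepr and Crhr2, and the 3 neocortex libraries under 20 CPM of Cdhr1 have the lowest Vipr2.

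Endothelin receptors are best known from blood vessels and astrocytes. Ednrb was high in cerebellum (119.6 ± 18.4 CPM) and hypothalamus (109.6 ± 10.7 CPM), which did not differ (adjusted p = 0.111), and at 46.1 ± 6.8 CPM in the neocortex. Ednra was lower, with means from 5.19 ± 0.63 CPM in the hippocampus, its highest region, to 2.87 ± 0.554 CPM in the neocortex. Calcrl, which with an accessory Ramp protein forms the receptor for CGRP or adrenomedullin, had means of 9.97 ± 2.5 CPM in the hypothalamus, 8.91 ± 2.43 in the amygdala, 8.56 ± 1.62 in the hippocampus, 7.93 ± 1.51 in the cerebellum and 4.07 ± 1.12 in the neocortex, which was lower than each other region. It thereby differs from Calcr, its nearest relative in the set.

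The 2 reproductive states were then set against each other, region by region. In the hypothalamus 2 of the 36 receptors tested passed an adjusted p of 0.05, or 5.56%, where 22.6% of all genes did. Both, Trhr and Calcrl, were lower in primiparous females. The median SE of the log2 difference was 0.12 for the receptors and 0.08 for all genes, and the median size of the difference was 0.11 against 0.14. The fitted log2 difference was above 0 for 17 of 36, where 52.7% of all genes were, and its median was −0.01. At an unadjusted p under 0.05 there were 5, namely Trhr, Calcrl, Npy1r, Adcyap1r1 and Vipr1, beside 37.1% of all genes.

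Trhr (chr15:44196135-44235912, plus strand) had 14.9, 17.0 and 19.7 CPM in the lowest, median and highest virgin hypothalamus library. In primiparous females it had 9.27, 12.5 and 15.9 CPM. All 8 primiparous libraries lay below the virgin mean of 17.2 ± 1.59 CPM (SD, n = 8), while the ranges overlapped by the top of the primiparous and the bottom of the virgin libraries. Trhr was lower by a log2 difference of −0.44 (SE 0.11; edgeR, adjusted p = 0.00744), and the call held with each of the 16 libraries left out in turn (adjusted p from 0.00308 to 0.0193). Its peptide gene Trh, the head of the thyroid axis, was at 83.2 ± 11.2 CPM in virgin and 101.8 ± 22.2 CPM in primiparous libraries (log2 difference 0.27, adjusted p = 0.102), and did not pass. Summed pituitary markers ranged from 0.855 to 182 CPM in virgin and from 0.716 to 142 CPM in primiparous libraries with medians of 7.42 and 17.8 CPM, and their part in the result was not tested. The 6 thalamus markers summed to 46.7 to 131 CPM (median 63.8) in virgin and 39.8 to 71.7 CPM (median 49.6) in primiparous libraries, the direction of Trhr and Calcrl; none of the 5 that could be tested passed, and their part in both results was not tested. Leaving out the 3 libraries rich in Prl, an alternative chosen after seeing the data, gave −0.41 with an adjusted p of 0.0571, and it gave −0.48 with an adjusted p of 0.0842 for Calcrl, described next.

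Calcrl (chr2:84330626-84425411, minus strand) had 8.61, 12 and 13.3 CPM in the lowest, median and highest virgin hypothalamus library and 5.23, 8.24 and 12.7 CPM in primiparous ones. The ranges overlapped, and 7 of 8 primiparous libraries were below the virgin mean of 11.5 ± 1.43 CPM (SD, n = 8). The log2 difference was −0.47 (SE 0.15; edgeR, adjusted p = 0.0249). It was past the threshold in 14 of 16 fits that left out 1 library, and not without primiparous 421 (adjusted p = 0.0503) or virgin 4489 (adjusted p = 0.0541). The start window of Calcrl, shown because it is a receptor with a difference between the states and an annotated start, is chr2:84425217-84425516 on the minus strand (GRCm38.p6), with 7 CG in capitals.
Calcrl: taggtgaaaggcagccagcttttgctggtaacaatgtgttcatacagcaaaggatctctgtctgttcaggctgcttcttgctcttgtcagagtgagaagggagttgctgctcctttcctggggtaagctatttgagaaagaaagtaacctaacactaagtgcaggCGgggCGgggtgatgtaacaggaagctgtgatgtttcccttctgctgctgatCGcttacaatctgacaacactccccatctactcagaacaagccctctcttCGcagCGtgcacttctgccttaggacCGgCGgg
Endothelial cells carry Calcrl, and the 6 endothelial markers summed to 103 to 208 CPM (median 139) in virgin and 104 to 180 CPM (median 167) in primiparous hypothalamus libraries. Of the 6, Cldn5 alone passed the threshold, and it was higher in primiparous females (27.6 ± 6.85 against 37.2 ± 8.44 CPM; adjusted p = 0.0478). Slco1a4 was at 36.1 ± 12 and 27.6 ± 6.77 CPM (adjusted p = 0.175) and Tek at 12.4 ± 3.15 and 11.4 ± 2.88 CPM (adjusted p = 0.528) in virgin and primiparous libraries, so the list ran in both directions, and its part in the result was not tested. The Ramp partners did not pass: Ramp1 was at 48.6 ± 4.66 and 55.9 ± 6.88 CPM, Ramp2 at 10.3 ± 1.57 and 11.1 ± 2.93 CPM, and Ramp3 at 7.05 ± 5.38 and 3.94 ± 1.14 CPM in virgin and primiparous libraries (edgeR, adjusted p of 0.0811, 0.709 and 0.0648). Ramp3 is also among the thalamus markers summed above, so its level and those sums are not separate observations.

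Both calls depended on how the libraries were modelled. Of the 9 animals numbered with 3 digits, 7 were primiparous, and of the 7 numbered with 4 digits, 1 was, so those series and the states were in large part confounded. With the number of digits as a covariate, Trhr was at −0.31 (adjusted p = 0.282) and Calcrl at −0.36 (adjusted p = 0.369), and 3 genes in all were past the threshold. Within 3-digit animals Trhr was at −0.32 and Calcrl at −0.30 (both adjusted p = 0.999), and within 4-digit animals, with 1 primiparous library, they were at −0.33 and −0.49. After a correction for gene length and GC content, Trhr was at −0.18 (adjusted p = 0.387) and Calcrl at −0.19 (adjusted p = 0.509). The direction was the same in each of these fits, and neither receptor passed with the covariate, within 3-digit animals or after the correction. The values within 4-digit animals are given as sizes only and stand for no call. In 1 fit of all 10 groups of region and state Calcrl passed (−0.47, adjusted p = 0.0338) and Trhr did not (−0.45, adjusted p = 0.132).

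**Figure D4:**
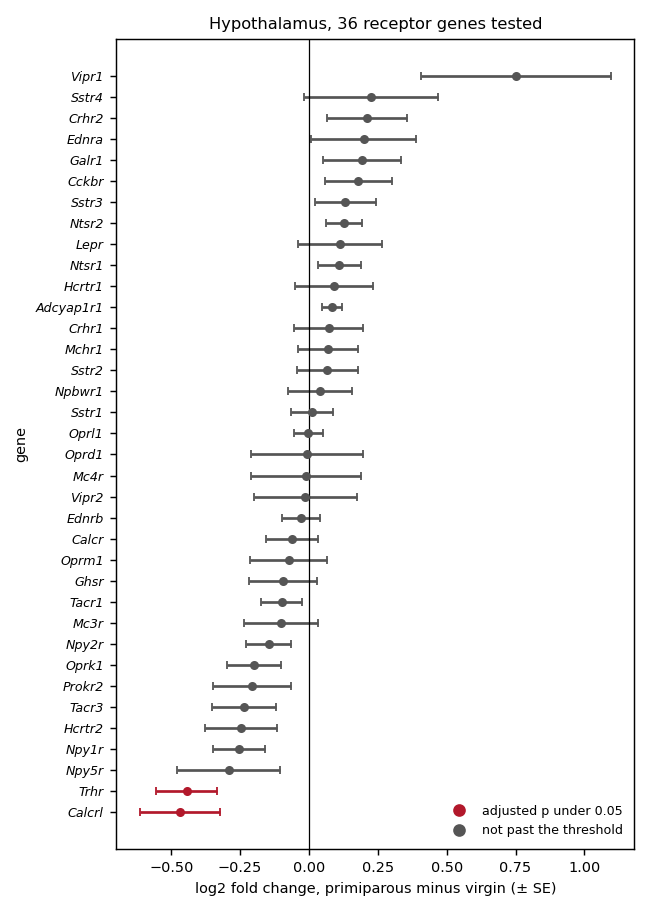
Log2 difference of primiparous over virgin hypothalamus (horizontal axis) for each of the 36 receptors tested (rows), with bars of 1 SE from edgeR. Trhr at −0.44 and Calcrl at −0.47 are the 2 receptors past an adjusted p of 0.05, and Vipr1 at 0.75 has a long error bar.

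The other receptors of the hypothalamus gave values without a call in edgeR. Npy1r was nearest, at 21.3 ± 1.94 CPM in virgin and 18.2 ± 3.1 CPM in primiparous libraries, with 7 of 8 primiparous libraries below the virgin mean (log2 difference −0.25, SE 0.10; adjusted p = 0.0557), and it was called by limma-voom (adjusted p = 0.0451) and DESeq2 (adjusted p = 0.0404). Adcyap1r1 was above the virgin mean in 8 of 8 primiparous libraries, but its difference was small, from 447 ± 21.3 to 480.3 ± 15.6 CPM (0.08, SE 0.04; adjusted p = 0.108). Vipr1 had a larger difference of 0.75 with an SE of 0.34 at 1.13 and 1.92 CPM (adjusted p = 0.113, and 0.0214 in the fit of all 10 groups). Oprk1 (−0.20, adjusted p = 0.136), Tacr3 (−0.24, 0.139) and Hcrtr2 (−0.25, 0.175) each had 7 of 8 primiparous libraries below the virgin mean. Without primiparous 418 each of them passed in edgeR (adjusted p of 0.0235, 0.0156 and 0.00633), with Hcrtr2 at −0.39, and so did 31.6% of all genes. limma-voom with sample quality weights called each of them as well, beside 37.6% of all genes. Of the receptors at least 4-fold higher in the hypothalamus, Calcr was at −0.06 (SE 0.09), Ghsr at −0.09 (SE 0.12) and Mc3r at −0.10 (SE 0.13), with adjusted p from 0.609 to 0.659. Hcrtr2 and Tacr3, given above, and Glp1r (0.21, SE 0.20, in a fit without the filter) had larger differences. Within 4-digit animals, with 1 primiparous library, Calcr was at −0.66. Lepr was at 5.65 and 6.25 CPM (0.11, SE 0.15; adjusted p = 0.619).

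In the other regions no receptor passed the edgeR test, and 0.0% of all genes did in amygdala, hippocampus and neocortex and 0.707% in the cerebellum. With an unadjusted p under 0.05 there were 3 receptors in the amygdala (Ednrb, Calcrl and Hcrtr1), 3 in the hippocampus (Tacr3, Ednrb and Ntsr2), 2 in the neocortex (Npy1r and Npy2r) and 4 in the cerebellum (Ednrb, Vipr1, Npy2r and Lepr). The shares of all genes under that p were 11.9%, 7.38%, 9.80% and 19.5% in the same order. limma-voom called 0 receptors in each of these regions, and DESeq2 called 1, in the cerebellum.

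Ednrb had the smallest p in both the amygdala and the cerebellum. In the cerebellum it was at 93.4, 108 and 123 CPM in the lowest, median and highest virgin library and at 102, 132 and 151 CPM in primiparous ones, with 7 of 8 above the virgin mean (log2 difference 0.31, SE 0.08; edgeR, adjusted p = 0.0527). It passed the threshold in 5 of 15 fits that left out a library and in 3 of 11 other settings. In the amygdala its values were 52.5, 58.0 and 86.3 CPM in virgin and 67.7, 74.7 and 95.3 CPM in primiparous libraries (0.29, SE 0.10; edgeR, adjusted p = 0.259), and 8 of 8 primiparous libraries exceeded the virgin mean. Astrocytes carry Ednrb, and in the cerebellum the 5 astrocyte markers summed to 2206 to 2677 CPM (median 2359.9) in virgin and 2321 to 2701 CPM (median 2489) in primiparous libraries. Their amygdala sums were 1332 to 2439.5 CPM (median 1685) and 1621 to 2375 CPM (median 1898). Oligodendrocyte markers in the cerebellum summed to 4035 to 5470.0 CPM (median 4722) in virgin and 4963 to 6977 CPM (median 5923) in primiparous libraries. Microglia markers there summed to 76.8 to 91.3 CPM in virgin and 89.7 to 112 CPM in primiparous libraries. Meningeal fibroblast markers summed to 69.1 to 86.2 and 84.3 to 109 CPM, while mural markers had medians of 182 and 177 CPM. The part of these cell types in the result was not tested. Hippocampus Ednrb was at 44.3 ± 5.25 and 52.5 ± 8.81 CPM (0.25, adjusted p = 0.633).

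Tacr3 had the smallest p in the hippocampus, with 1.10, 2.52 and 3.33 CPM in virgin and 2.34, 3.68 and 7.68 CPM in primiparous libraries (lowest, median and highest; 0.82, SE 0.26; edgeR, adjusted p = 0.564). Npy1r had it in the neocortex, with 28.4 ± 3.69 and 23.3 ± 3.91 CPM (−0.25, SE 0.10; adjusted p = 0.488), the same direction as in the hypothalamus. Without a call these are descriptions of the libraries.

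**Figure D5:**
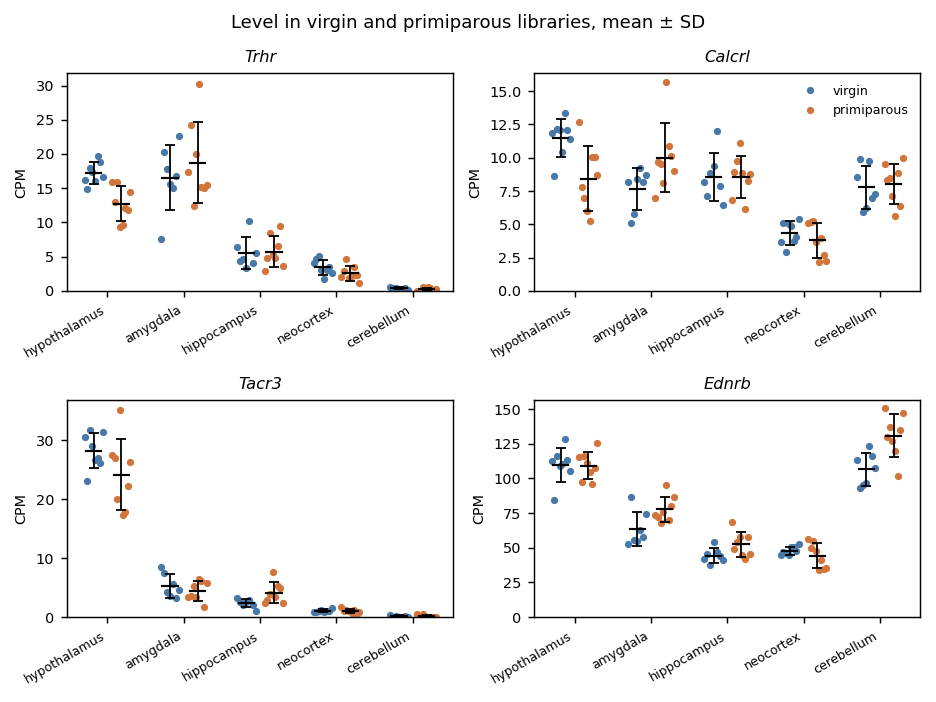
CPM of Trhr, Calcrl, Tacr3 and Ednrb in each library (points) by region and reproductive state, with the group mean and bars of 1 SD. Hypothalamus Trhr and Calcrl are lower in primiparous libraries, amygdala Calcrl and hippocampus Tacr3 have higher primiparous means, and Ednrb has higher primiparous means in amygdala, hippocampus and cerebellum.

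Whether the difference between the states itself differed between the hypothalamus and another region was tested by an interaction term. Calcrl differed between hypothalamus and amygdala (−0.86, SE 0.23; edgeR, adjusted p = 0.00777), the only receptor to do so where 18.2% of genes did. Its log2 difference was −0.47 in the hypothalamus and 0.40 in the amygdala, where virgin libraries had 5.09, 8.21 and 9.23 CPM and primiparous ones 6.98, 9.60 and 15.7 CPM. The 15.7 CPM library is primiparous 421, and the interaction stayed past the threshold with each of the 16 animals left out in turn (adjusted p from 0.00149 to 0.0281). Endothelial markers in the amygdala summed to 32.1 CPM in virgin 4486, where Calcrl was at 5.76 CPM, and to 119 to 237 CPM in the other virgin libraries. Primiparous 421 had the highest primiparous sum, 211 CPM, and the others 120.2 to 204 CPM. Calcrl was lowest in virgin 409 (5.09 CPM, sum 119 CPM) and at 8.21 CPM in virgin 405, which had the highest sum. It was at 10.9 CPM in primiparous 425, which had the lowest primiparous sum. The part of endothelial cells in this interaction was not tested. Tacr3 was the only receptor that differed between hypothalamus and hippocampus (−1.09, SE 0.29; adjusted p = 0.0114), against 17.2% of genes, and it also held in all 16 fits without 1 animal (0.00523 to 0.0380). With the animal as a block Npy2r was called as well (−0.31, adjusted p = 0.0392, from −0.26 and 0.123 without it).

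Npy2r, Vipr1 and Ednrb differed between hypothalamus and cerebellum, where 15.5% of genes did. Npy2r had an interaction of −1.22 (edgeR, adjusted p = 0.00371), but its cerebellum counts were too low to measure by the rule above, with a median of 4 reads in virgin and 10 in primiparous libraries, and limma-voom did not call it (−1.09, adjusted p = 0.117). Vipr1 had an interaction of 1.3 (adjusted p = 0.0208) and missed the threshold with the animal as a block (adjusted p = 0.0522). It passed in 13 of 16 fits without 1 animal, and not without primiparous 413, virgin 4487 or virgin 4491. In the cerebellum Vipr1 was at 6.03 ± 1.05 CPM in virgin and 4.11 ± 1.39 CPM in primiparous libraries. Ednrb had −0.35 (SE 0.11; adjusted p = 0.0262, and 0.0121 with the block), and it passed in 9 of 16 fits without 1 animal, with adjusted p up to 0.0839. Astrocyte markers had medians of 1663 and 1599.9 CPM in virgin and primiparous hypothalamus libraries, and 2359.9 and 2489 CPM in the cerebellum. In the test of hypothalamus against neocortex 0 receptors passed, as did 0.0% of genes, and 1 receptor, Vipr1, was under an unadjusted p of 0.05. With the number of digits by region as a covariate none of these interactions was past the threshold. The log2 difference was then close to the value above for Calcrl (−0.84, adjusted p = 0.0892), Npy2r (−1.21, adjusted p = 0.311) and Vipr1 (1.31, adjusted p = 0.349), and nearer 0 for Tacr3 (−0.61, adjusted p = 0.489) and Ednrb (−0.26, adjusted p = 0.459).

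The peptides that act on these receptors were listed as 37 genes, of which 22 could be tested. In the hypothalamus 6 passed, or 27.3%, beside 22.6% of all genes, with a median log2 difference of 0.17 over the list and 0.01 over all genes. Higher in primiparous females were Npy (26.0 ± 7.16 against 38.4 ± 7.55 CPM; 0.53, adjusted p = 0.0168), Sst (125 ± 9.21 against 172 ± 28 CPM; 0.44, adjusted p = 0.0014) and Gal (28.7 ± 3.24 against 37.6 ± 7.77 CPM; 0.36, adjusted p = 0.0167). Lower were Pmch (204 ± 47.2 against 140.6 ± 20.3 CPM; −0.56, adjusted p = 0.0112), Nts (27.5 ± 4.84 against 21.7 ± 5.33 CPM; −0.35, adjusted p = 0.0492) and Adcyap1 (128 ± 14.5 against 108 ± 10.9 CPM; −0.26, adjusted p = 0.0112). Some marker sums also differed between virgin and primiparous hypothalamus libraries. Their medians were 134 and 166 CPM for hippocampus markers, 53.4 and 67.9 CPM for ependyma and 63.8 and 49.6 CPM for thalamus. Those of hypothalamus markers were 1079 and 1103 CPM, and the part of these tissues in the peptide results was not tested. None of the receptors for these 6 peptides passed the main edgeR test in the hypothalamus. Under other settings Npy1r did in limma-voom and DESeq2, Vipr1 in the fit of all 10 groups, and Npy1r, Npy2r, Ntsr2 and Adcyap1r1 in limma-voom with sample quality weights. Within 4-digit animals, with 1 primiparous library, Npy5r was at −1.24 and Sstr4 at 0.97. The peptides of Trhr and Calcrl did not pass or could not be tested: Trh had an adjusted p of 0.102, and Calca, Calcb and Adm were below the filter (Calca at 4.86 and 4.80 CPM). With the number of digits as a covariate none of the 6 passed (all 6 in the same direction), beside 0.0230% of all genes. With the length and GC correction Sst alone did (0.24, adjusted p = 0.00936), beside 2.60%, and without the Prl-rich libraries 1 did, beside 7.18%. In the fit of all 10 groups 2 passed, beside 16.8%. Within 4-digit animals, which include 1 primiparous library, 5 of the 6 kept their direction. In the cerebellum Cck passed (39.9 ± 2.89 against 48.0 ± 3.71 CPM, log2 difference 0.28, edgeR, adjusted p = 0.0483), beside 0.707% of all genes, while limma-voom called 0 peptide genes there and DESeq2 2. No peptide gene passed in the other 3 regions. At an unadjusted p under 0.05 there were 3, 1 and 2 in amygdala, hippocampus and neocortex, beside 11.9%, 7.38% and 9.80% of all genes.

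Downstream of the receptors, 12 of 30 tested genes of G proteins, arrestins, receptor kinases, adenylyl cyclases, phospholipases and Janus kinases passed in the hypothalamus, or 40.0%, beside 22.6% of all genes. In primiparous females 6 were higher, the G protein subunits Gnai2 (0.21), Gnaz (0.26) and Gna11 (0.20), the arrestin Arrb2 (0.25), the receptor kinase Grk2 (0.15) and the cyclase Adcy3 (0.21). The 6 lower ones were Gnai1 (−0.19), Gnai3 (−0.24), Gnal (−0.22), the phospholipases Plcb1 (−0.20) and Plcb4 (−0.18) and the kinase Jak2 (−0.24), all as log2 differences with adjusted p from 0.00379 to 0.0448. Members of the same subunit family thus lay on both sides. Of these 12, none passed with the digits as a covariate (0.0230% of all genes did), with all 12 in the same direction. With the length and GC correction (2.60% of genes) Gnal alone passed (−0.23, adjusted p = 0.00396) and Grk2 changed sign (−0.01, adjusted p = 0.906). Without the Prl-rich libraries 3 passed, beside 7.18% of genes, and in the fit of all 10 groups 9, beside 16.8%. Within 4-digit animals, which include 1 primiparous library, all 12 kept their direction. Accessory proteins (7 tested) gave 0 calls in edgeR in any region. At an unadjusted p under 0.05 there were 4 in the hypothalamus, beside 37.1% of all genes, and 2 in the cerebellum, beside 19.5%. DESeq2 called 1 in the hypothalamus, where it called 25.5% of all genes, and 2 in the cerebellum. Among 18 further receptors of the same families only Cckar could be tested, and it did not pass in any region (1 region, the hippocampus, had it at an unadjusted p under 0.05).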

How the data were processed

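RNA was sequenced from polyA-selected libraries as single-end reads of 100 bases. Per the labels and the study's methods, the authors aligned reads to mm10 with HISAT2, counted uniquely mapped reads per gene with featureCounts and left out 3 libraries as outliers. The deposited counts per gene were used for all results. The deposited log2 table held 13016 genes and lay close to log2(normalised count + 4), and it was used for gene symbols only. Tool versions and the strand setting are not given in the sources used here.

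CPM were computed from total counts. Tests were edgeR (4.0.16, R 4.3.3) quasi-likelihood fits with TMM scaling on genes at 5 CPM or more in at least 8 libraries, with Benjamini-Hochberg adjustment over all 13016 genes and a threshold of 0.05. Virgin and primiparous libraries were compared within each region, regions were compared over all 77 libraries, and interactions were fitted over both regions of a pair. P-values within a region measure the spread between animals. The region and interaction fits treat libraries of the same animal as independent, except where the animal is a block. The edgeR and limma-voom fits were also run on simulated counts based on the hypothalamus libraries. That simulation held no confounding by animal number, so it does not bear on this limit. The members and gene lists were chosen with earlier results of these data known. Members named with full values were those past the threshold in a comparison of states or an interaction, the member with the smallest p in each region without one, the 3 highest per length in each region, and those at least 4-fold higher in one region than in the other 4; their ligands were named with them, and the remaining members were accounted for by family. Other peptide and signalling genes past the threshold, further members singled out between states, and the gene Cdhr1 were named after their values were seen. Alternatives included limma-voom (3.58.1), DESeq2 (1.42.0), other filters and scalings, the digits of the animal number, a length and GC correction (lengths for 97.0% of genes), and leaving out each library. Leaving out libraries rich in Prl or Ttr or low in Cdhr1, hippocampus primiparous 413, and each animal in the interactions were chosen after seeing the data.

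All regions came from the same 16 animals, so the animal number pairs the libraries. Same-animal libraries of 2 regions had median correlations of deviations between −0.0132 and 0.104 over the 10 region pairs, against −0.0205 to 0.00685 for different animals.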

Additional observations from a re-analysis of the deposited data

Results flagged for a closer look

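In 328 groups of 7 or 8 libraries, 27 single libraries lay further from their group than Dixon's 95% limit, and chance alone flags about 1 group in 20. The values are CPM, with the range of the other libraries of that group.

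Hippocampus libraries account for 10. Virgin 4487 had 11.1 CPM of Lepr (others 1.04 to 2.88), 4.27 of Crhr2 (0.766 to 1.67), 2.55 of Vipr2 (0.186 to 0.752) and 179.8 of Adcyap1r1 (212 to 230). Primiparous 425 had 5.59 CPM of Crhr2 (0.780 to 2.67), and both of these libraries were rich in Ttr. Primiparous 413, with cerebellar Gabra6, had 18 CPM of Crhr1 (8.94 to 10.8), 2.73 of Vipr2 (0.113 to 0.668) and 5.41 of Npy5r (7.32 to 9.02). Ednra was at 6.97 CPM in virgin 4491 (4.32 to 5.01) and at 6.06 in primiparous 414 (4.84 to 5.42).

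In the amygdala, primiparous 421 had 15.7 CPM of Calcrl (6.98 to 10.9), 10.2 of Calcr (1.87 to 5.76) and 33.2 of Cckbr (47.8 to 57.4). Virgin 409 had 29.2 CPM of Cckbr (46.1 to 55.7) and 27.8 of Sstr3 (35.6 to 41.5), and virgin 4486 had 33.3 of Npy2r (19.6 to 23.9).

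In the hypothalamus, Oprd1 was at 9.88 CPM in virgin 4491 (5.89 to 7.54) and at 1.81 in primiparous 418 (6.70 to 10.004). Tacr1 was at 18.4 CPM in virgin 4491 (20.9 to 22.4), Grpr at 1.32 in virgin 4487 (2.92 to 3.96) and Adcyap1r1 at 491 in virgin 409 (423 to 453).

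In the neocortex, Hcrtr1 was at 4.96 CPM in virgin 405 (2.51 to 3.44), Oprl1 at 49.5 in primiparous 425 (37.6 to 42.9) and Sstr2 at 20.1 in virgin 4489 (10.2 to 14.9). In the cerebellum, primiparous 427 had 0.509 CPM of Npy1r (1.57 to 2.31) and 4.33 of Oprd1 (0.820 to 2.34), and primiparous 421 had 6.74 of Lepr (2.84 to 4.29).

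Differences between regions in the primiparous-virgin difference, tested by an edgeR interaction, were found for Calcrl (−0.86, hypothalamus minus amygdala), Tacr3 (−1.09, hypothalamus minus hippocampus), and Npy2r (−1.22), Ednrb (−0.35) and Vipr1 (1.3) for hypothalamus minus cerebellum.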

How the results depend on the processing

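The counts of receptors, over all 36 tested, that differed between regions stayed within 1.5 times under the 6 alternatives run for each pair, and no result reversed. In the hypothalamus 2 receptors were called, against 9 by limma-voom with sample quality weights, 5 in animals with 4-digit numbers (1 primiparous library, assumed to vary like the virgin ones) and 0 with the digits as a covariate, in animals with 3-digit numbers, with the length and GC correction and without the Prl-rich libraries; leaving out 1 library gave 1 to 6 (6 without primiparous 418 or virgin 409, 1 without primiparous 421 or virgin 4489). The share of all genes called in the hypothalamus also moved, from 22.6% to 37.6% with quality weights. It was 0.0230% with the digits as a covariate, 0.00768% in 3-digit animals, 2.60% with the length and GC correction and 7.18% without the Prl-rich libraries. It was 31.6% and 30.2% without primiparous 418 and virgin 409, and 16.0% and 16.6% without primiparous 421 and virgin 4489. Animals with 4-digit numbers include 1 primiparous library, so no count or share is given for them. In the cerebellum 0 became 1 with the length and GC correction and with DESeq2, and 2 with quality weights. Leaving out 1 library there gave 0 to 2 (1 or 2 without primiparous 418, 425 or 4493 or virgin 405 or 4488). In amygdala, hippocampus and neocortex, leaving out 1 library gave 0 to 0. For the interactions, the digits by region as a covariate gave 0 for each region, with log2 differences near the main ones for Calcrl, Npy2r and Vipr1. The hypothalamus-amygdala count of 1 became 2 by limma-voom and 1 to 3 with 1 animal left out. With the animal as a replicate block the hypothalamus-hippocampus count of 1 became 2, and 1 to 3 with 1 animal left out; the block changed no other count by over 1.5 times, and among the calls it lost Vipr1. The hypothalamus-cerebellum count of 3 ranged from 1 (without virgin 4487 or 4491) to 4, and the hypothalamus-neocortex count from 0 to 0. The cause of these changes was not tested. Under these alternatives the cerebellum and interaction counts have no share of all genes beside them, so they describe the receptors only. The median SE of the hypothalamus log2 difference was 0.12 for the receptors, which limits the precision of each value.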
